A study of Mus musculus with 12 samples.

Results

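Arl2bp, Pea15a, Ampd2, Med10 and Icmt are 5 of the 11208 genes tested in EMS404 cells. They were chosen by measured levels, as transcripts that were lower after Bmal1 siRNA than after scrambled siRNA, both with TGFb and with vehicle. By the test described below, 10 genes were lower in both treatments, these 5 among them. Why the others were left out is not stated in the available sources. All 5 were found in the deposited table under their own symbols and all 5 passed the filter of a mean of at least 0.5 FPKM (fragments per kilobase of transcript, relative to library size). Because their levels under both siRNAs chose them, those levels are described here without a test. EMS404 is an SV40-immortalised hepatic stellate cell line from C57Bl6 mouse liver that expresses human TLR4. All libraries shared this line. The 4 groups, with 3 libraries each, were Bmal1 siRNA with TGFb, scrambled siRNA with TGFb, Bmal1 siRNA with vehicle and scrambled siRNA with vehicle. TGFb was given at 10 ng/mL, 48 h after transfection, and RNA was taken after 24 h of treatment. No library came from untransfected cells, and only 1 scrambled and 1 Bmal1 reagent was labelled, so the target gene and the reagent cannot be told apart.

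An siRNA is a short duplex whose guide strand is loaded into an Argonaute protein. A guide that pairs along its whole length directs cleavage of the transcript. Pairing of the seed alone, bases 2 to 8 of the guide, with a site in a 3′ UTR can lower other transcripts to a smaller extent, as a microRNA does. Bmal1 is the clock transcription factor encoded by Arntl, which pairs with CLOCK and binds E-box motifs. The 5 genes described here have unrelated roles. Arl2bp encodes a protein that binds ARL2, a small GTPase. Pea15a encodes a death-effector-domain phosphoprotein that binds ERK1 and ERK2. Ampd2 encodes an AMP deaminase that makes IMP, Med10 a subunit of the Mediator complex, and Icmt the methyltransferase that finishes the processing of prenylated CAAX proteins.

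The 3′ UTRs of the 5 genes share a 7-letter word. Of all 16384 words of 7 letters, 1, CCGTGCT, was present in the longest annotated 3′ UTR of all 5 genes, and 17 were present in 4 of them. The word occurred in the longest 3′ UTR of 573 of 11085 tested genes with an annotated 3′ UTR, 5.17%. Of the 5 other genes that were lower in both treatments, 1 held it there. The 3′ UTR sites are given because they are what the 5 transcripts have in common in sequence. The Arntl site is shown because the word also lies in the coding sequence of the siRNA's target. Leaving out the 5, 1070 of 11080 genes held the word in the coding sequence, so Arntl was 1 of many. Each line gives 30 bases of the transcript, 5′ to 3′, from GENCODE M21, with the shared word in capitals.

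Arl2bp: agtaaacagactCCGTGCTgactttccatg
Pea15a: tccccatcttgaCCGTGCTaactgtgtgta
Ampd2: ctctgcatgtctCCGTGCTatgtttctgtc
Med10: gcaggaagacaaCCGTGCTgaaatgtgaaa
Icmt, site 1: tggtcagagttgCCGTGCTgaatatcagca
Icmt, site 2: aggaagtaatgtCCGTGCTcattctgagaa
Arntl: tagataaactcaCCGTGCTaaggatggctg

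These sites lay in the last exon of each gene apart from that of Arntl. On mm10 the Arl2bp site was at chr8:94674284-94674313 on the plus strand, in exon 6 of 6, where the word began at base 1178 of a 3′ UTR of 1307 bases. The Pea15a site was at chr1:172197499-172197528 on the minus strand, in exon 4 of 4, at base 1110 of 1898. The Ampd2 site was at chr3:108074805-108074834 on the minus strand, in exon 18 of 18, at base 93 of 853. Med10 held the word at base 227 of 415, in exon 4 of 4, at chr13:69815904-69815933 on the plus strand. Icmt held it at bases 386 and 750 of 3917, in exon 5 of 5, at chr4:152303578-152303607 and chr4:152303942-152303971 on the plus strand. The shortest annotated 3′ UTRs of Arl2bp, 171 bases, and Med10, 333 bases, did not hold the word, and those of Pea15a, Ampd2 and Icmt held it. Which 3′ UTR the cells used was not measured.

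Arntl held the word in its coding sequence, at base 359 of 1902, in exon 8 of 20 at chr7:113285103-113285132 on the plus strand. Its longest 3′ UTR, 507 bases, did not hold it. Around the word, the run of letters shared with the Arntl site was 10 bases in Pea15a, ACCGTGCTAA, and 8 bases in Ampd2, CCGTGCTA, and Med10, ACCGTGCT. It was 7 bases, the word itself, in Arl2bp and at both Icmt sites. No share of other genes with runs of these lengths is given here. The available sources do not give the siRNA sequences, so whether the word pairs with the seed of either strand was not tested. None of 1679 mature mouse miRNA names in RefSeq had the complementary letters as its seed.

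Arl2bp had the lowest siRNA difference of all tested genes under vehicle and the highest share of transcript missing among the 5. Under TGFb it had 37.42, 39.78 and 42.28 FPKM in Bmal1 siRNA cells, against 64.52, 64.38 and 64.0 FPKM in scrambled siRNA cells. Under vehicle it had 41.12, 38.9 and 39.72 FPKM in Bmal1 siRNA cells, against 73.37, 73.93 and 71.19 FPKM in scrambled siRNA cells. The siRNA groups did not overlap in either treatment, and the Bmal1 siRNA libraries lay near 40 FPKM in both. The level was 38.1% lower under TGFb and 45.2% lower under vehicle. On the log2(FPKM + 1) scale, used for all differences below, this was −0.68 under TGFb and −0.85 under vehicle, each with a standard error of 0.05 (limma, n = 3 each). Among 11208 tested genes these differences ranked 205th from the lowest under TGFb and 1st under vehicle. For all 5 transcripts, siRNA groups that do not overlap follow in part from how the genes were chosen. How many of all tested genes show this was not counted. It is not particular to the 5: the siRNA groups of Dcaf8, a gene beside Pea15a, did not overlap in either treatment. Its Bmal1 siRNA libraries lay above, with a log2 difference of only 0.05 under vehicle.

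Pea15a, the ERK-binding protein's transcript, stood next. Under TGFb it had 51.03, 51.84 and 53.17 FPKM with Bmal1 siRNA, against 67.75, 67.71 and 68.68 FPKM with scrambled siRNA. With vehicle the values were 53.08, 53.29 and 55.45 FPKM with Bmal1 siRNA, against 77.74, 75.66 and 73.85 FPKM with scrambled siRNA. Every Bmal1 siRNA library lay below every scrambled siRNA library. The level was 23.6% lower under TGFb and 28.8% lower under vehicle, log2 differences of −0.38 and −0.48 with a standard error of 0.04 each.

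Ampd2, which drains AMP towards IMP, had 21.29, 19.65 and 19.66 FPKM with Bmal1 siRNA and TGFb, against 26.04, 23.55 and 22.94 FPKM with scrambled siRNA and TGFb. With vehicle Ampd2 had 20.88, 18.87 and 17.66 FPKM with Bmal1 siRNA, against 27.24, 24.7 and 25.71 FPKM with scrambled siRNA. The groups did not overlap, and the gap between them was narrower under TGFb than under vehicle. The log2 differences were −0.25 under TGFb and −0.42 under vehicle, with a standard error of 0.07 each, or 16.4% and 26.1% less transcript.

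Med10, a subunit of the middle module of Mediator, had 22.46, 20.69 and 24.75 FPKM with Bmal1 siRNA and TGFb, against 27.51, 29.42 and 26.65 FPKM with scrambled siRNA and TGFb. With vehicle Med10 had 19.9, 21.96 and 21.1 FPKM with Bmal1 siRNA, against 28.87, 27.67 and 25.67 FPKM with scrambled siRNA. The groups again did not overlap. The log2 differences were −0.29 under TGFb and −0.37 under vehicle, with a standard error of 0.07 each, or 18.8% and 23.4% less transcript.

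Icmt, the methyltransferase, had the lowest level of the 5. With TGFb it had 9.47, 9.08 and 9.98 FPKM in Bmal1 siRNA cells, against 12.06, 11.35 and 11.13 FPKM in scrambled siRNA cells. Vehicle-treated cells had 9.56, 9.09 and 8.28 FPKM with Bmal1 siRNA, against 11.14, 11.69 and 11.57 FPKM with scrambled siRNA. The groups did not overlap. The log2 differences were −0.25 under TGFb and −0.32 under vehicle, with a standard error of 0.06 each, or 17.4% and 21.7% less transcript.

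**Figure D1:**
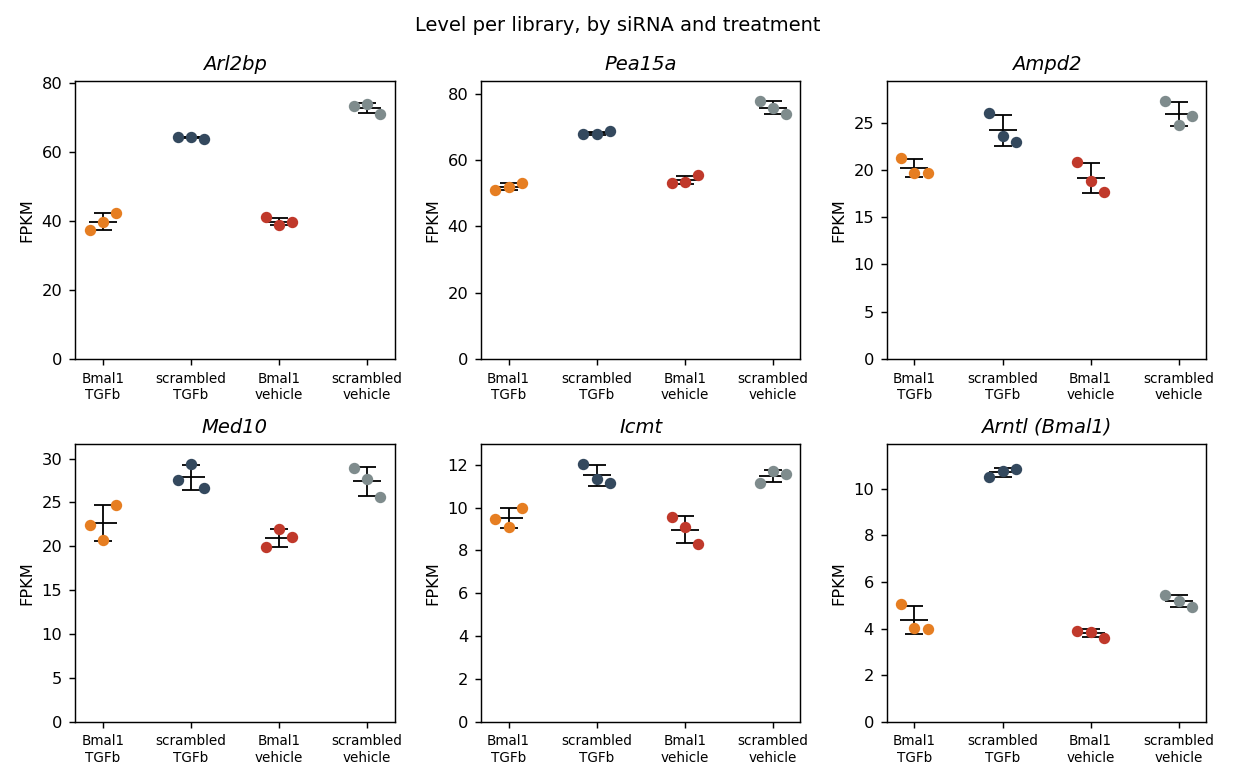
Level in FPKM (vertical axes, from 0) of the 5 transcripts and of Arntl in each of the 12 libraries, by siRNA and treatment. Points are libraries, and the bars are the group mean and SD (n = 3). In every panel the Bmal1 siRNA libraries lie below the scrambled siRNA libraries of the same treatment. For the 5 transcripts this follows in part from how they were chosen.

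Arntl, the siRNA's target, was lower too, with another order of the treatments. Under TGFb it had 5.05, 4.01 and 4.0 FPKM with Bmal1 siRNA, against 10.5, 10.75 and 10.86 FPKM with scrambled siRNA. Under vehicle it had 3.9, 3.87 and 3.59 FPKM with Bmal1 siRNA, against 5.43, 5.19 and 4.91 FPKM with scrambled siRNA. The Arntl level was thus 59.3% lower under TGFb and 26.9% lower under vehicle. For each of the 5 transcripts the siRNA difference was smaller under TGFb than under vehicle, by 0.07 to 0.17 log2. For Arntl it was larger under TGFb, by a log2 of −0.77. Over all genes tested the median of this change was 0.06 log2. As an interaction in limma with Benjamini-Hochberg adjustment, the change was called for Arntl and none of the 5, beside 1612 of 11208 tested genes. The levels that chose the 5 also enter this change. The 5 were not tested against Arntl. Under vehicle, Arl2bp lost a larger share of its transcript, 45.2%, than the siRNA's target, 26.9%; the remaining 4 lost 21.7% to 28.8%.

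In the whole table few genes were lower with Bmal1 siRNA in both treatments. By limma with Benjamini-Hochberg adjustment, called at 0.05, 7.16% of tested genes were lower under TGFb and 0.366% under vehicle, 802 and 41 genes. The genes lower in both were 10, or 0.0892%. They included the 5 described here with Arntl, Nr1d1, a clock repressor, Cacnb3, a calcium channel subunit, and Irx1, a homeobox factor. That the 5 are among these 10 follows from how they were chosen. Inside the threshold, close to it, lay Arntl (larger adjusted p of both comparisons 0.049), and just outside lay Plekho1 (0.0581) and Yrdc (0.0608). The count rests on single libraries. It was 2 without Bmal1 siRNA vehicle library 2 or 3 or scrambled vehicle library 1 or 3, and the 2 were Arl2bp and Pea15a. It was 3 without scrambled TGFb library 3, 4 without Bmal1 siRNA TGFb library 3, 6 without scrambled vehicle library 2 or scrambled TGFb library 1, and 20 without Bmal1 siRNA TGFb library 2. It was 2 without the filter on low values and 36 with the replicate number as a block.

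**Figure D2:**
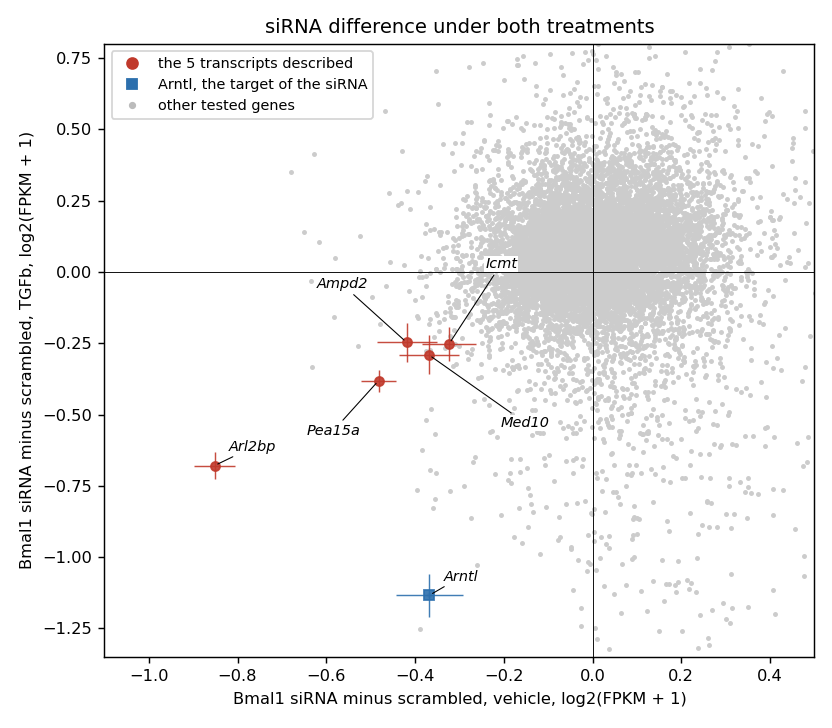
Difference between Bmal1 and scrambled siRNA in log2(FPKM + 1) under vehicle (horizontal axis) and under TGFb (vertical axis) for the tested genes within the axis limits. Bars are standard errors; Arl2bp stands apart at −0.68 under TGFb and −0.85 under vehicle, and Arntl at −1.13 under TGFb and −0.37 under vehicle.

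The word was then followed in genes whose levels had no part in choosing it. Leaving out the 5, the word was held by the 3′ UTRs of 568 genes and absent from those of 10512. Under TGFb the median log2 difference with Bmal1 siRNA was 0.04 in holders and 0.06 in the other genes, and under vehicle it was −0.006 in holders and 0.009 in the others. The share of genes below 0 was 42.4% in holders and 33.2% in the others under TGFb, and 52.6% against 47.1% under vehicle. These shifts were small beside the differences of the 5 themselves, and they were not adjusted for 3′ UTR length, GC content or level. Holders lay below the other genes in all 22 alternative settings under each treatment. The gap was 0.02 to 0.04 log2 under TGFb and 0.01 to 0.03 log2 under vehicle. Many of these settings could hardly change the gap, so the count adds little. Among them were the replicate block, no trend, and leaving out libraries of the other treatment. In the comparison of TGFb with vehicle, averaged over both siRNAs, the medians were the same to 2 decimals, −0.02 in holders and −0.02 in the others.

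The holders were also described by the letter after the word, without a test of the difference. A site followed by A is a known feature of stronger microRNA-type pairing, and Pea15a, Ampd2 and Arntl have it. The 67 genes with such a site had a median log2 difference of 0.001 under TGFb and −0.02 under vehicle. In the 501 holders without one it was 0.04 under TGFb and −0.004 under vehicle. The share below 0 was 49.3% and 41.5% under TGFb, and 58.2% and 51.9% under vehicle, in the same order. In the comparison of TGFb with vehicle, averaged over both siRNAs, the order was the same, with 58.2% and 54.3% below 0 and medians of −0.03 and −0.02. In 1002 genes that held the word in the coding sequence and not in the 3′ UTR, the median was 0.05 under TGFb and 0.004 under vehicle, with 36.5% and 48.1% below 0. Under TGFb 9.18% of them were called lower, beside 8.98% of 3′ UTR holders and 7.07% of genes without the word there. Under vehicle these shares were 0.499%, 1.41% and 0.266%.

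**Figure D3:**
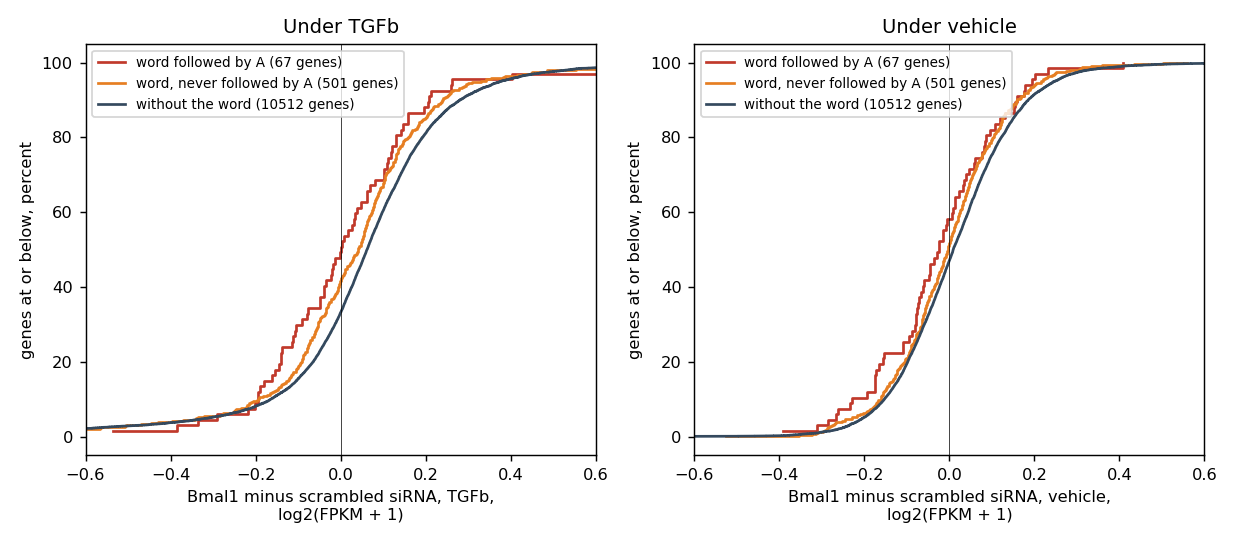
Share of genes, in percent (vertical axes), at or below each Bmal1 minus scrambled siRNA difference in log2(FPKM + 1) (horizontal axes), under TGFb on the left and under vehicle on the right, without the 5 transcripts. The curve of the 67 genes with the word followed by A lies to the left of that of the 10512 genes without the word over the middle of the range, with 58.2% and 47.1% of genes below 0 under vehicle.

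The word was compared with all others of its length. Of 15633 words of 7 letters held by at least 100 genes beside the 5, ranked by the mean difference of their holders after regression on 3′ UTR length, GC content and level, CCGTGCT was 983rd from the lowest under TGFb and 14th under vehicle. Its holders' adjusted mean difference was −0.02 under TGFb and −0.03 under vehicle. Dividing this difference by its standard error, an ordering chosen after the data were seen, placed it 731st under TGFb and 1st under vehicle. For the comparison of TGFb with vehicle it ranked 9134th by the mean difference. In coding sequences the word ranked 10356th of 16311 under TGFb and 3890th under vehicle. Genes share words with overlapping letters and base composition, so these ranks are descriptions of this table. The first word in that added ordering under TGFb was CCGACAG, which none of the 5 genes held.

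Genes called lower under vehicle held the word more often than those called higher. Leaving out the 5, the word was in 8 of 36 genes called lower, 22.2%, and in 1 of 33 called higher, 3.03%; of all tested genes 0.294% were called higher under vehicle. Under TGFb it was in 51 of 794 called lower, 6.42%, and in 70 of 1784 called higher, 3.92%. The counts under vehicle rest on few libraries. Leaving out 1 vehicle library, number 2 or 3 of the Bmal1 siRNA or number 1 or 3 of the scrambled siRNA, left 0 or 1 gene called lower and no called gene with the word. Without scrambled TGFb library 3 the word was in 1 of 5 genes called lower, without scrambled TGFb library 2 in 6 of 21, and without Bmal1 siRNA TGFb library 3 in 3 of 12. Without Bmal1 siRNA TGFb library 2 the word was in 22 of 262 genes called lower and in 8 of 202 called higher.

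The genes called lower that held the word included Rab34, Anapc11, Skp2, Atp6v0c, Erlin2, Slc25a10 and Nol12, named after their values were seen. Rab34, a small GTPase, averaged 40.9 ± 0.71 FPKM in Bmal1 siRNA cells and 54.2 ± 5.5 FPKM in scrambled siRNA cells under vehicle (SD, n = 3 each), a log2 difference of −0.39 (limma adjusted p = 0.0253). Skp2, the F-box subunit of an SCF ubiquitin ligase, averaged 19.3 ± 0.76 FPKM with Bmal1 siRNA and 24.1 ± 0.35 FPKM with scrambled siRNA under vehicle. Atp6v0c, a proton pump subunit of lysosomes, averaged 489.6 ± 12.9 FPKM with Bmal1 siRNA and 601.6 ± 15.7 FPKM with scrambled siRNA under vehicle. Under TGFb 5 of the 8 lay below 0, and 1 was called lower. Slc25a10, a mitochondrial dicarboxylate carrier, was called in opposite directions, with a log2 difference of 0.20 under TGFb and −0.28 under vehicle (limma adjusted p = 0.00881 and 0.0291).

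Among other genes called lower in both treatments, Arntl held the word in its coding sequence, and Nr1d1, Irx1 and Cacnb3 held it in neither the coding sequence nor the 3′ UTR.

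Promoters were searched for the E-box that BMAL1 binds. RefSeq windows of 300 bases, taken as 250 before to 50 after the gene start (GRCm38.p6), were at hand for all 5 genes, 7 in all. Some lay inside the GENCODE gene: the Arl2bp window began at chr8:94666841 and the gene at 94666600. CACGTG, its own reverse complement, was in none of the 7, and in 10.1% of the 11456 windows of tested genes. With CATGTG and its reverse complement CACATG counted too, 1 of the 7 windows held a match, in a second Med10 window, against 17.3% of all windows. The window of Nr1d1, a clock repressor called lower in both treatments, held no CACGTG and 2 matches to the other letters. The absence of these letters says only that they are not in these windows.

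The TGFb differences of the 5 transcripts, averaged over both siRNAs, ran from −0.10 to 0.06 log2. The difference between TGFb and vehicle averaged over both siRNAs is independent of the siRNA differences that chose the genes, so it was tested. Its standard error, however, comes from the same spread as theirs. Choosing genes by their siRNA differences can favour a low spread, so the adjusted p-values here may be too small. Of the 5, 2 were called, both lower, against 46.6% of all tested genes called in either direction. Pea15a averaged 52.0 ± 1.1 FPKM with TGFb and 53.9 ± 1.3 FPKM with vehicle in Bmal1 siRNA cells (SD, n = 3 each). In scrambled siRNA cells it averaged 68.0 ± 0.55 FPKM with TGFb and 75.8 ± 1.9 FPKM with vehicle. The averaged Pea15a difference was −0.10 ± 0.03 log2 (SE; limma adjusted p = 0.0086), a call that was lost with median-of-ratios scaling (adjusted p = 0.058). Arl2bp averaged 39.8 ± 2.4 FPKM with TGFb and 39.9 ± 1.1 FPKM with vehicle in Bmal1 siRNA cells, and 64.3 ± 0.27 FPKM with TGFb and 72.8 ± 1.4 FPKM with vehicle in scrambled siRNA cells.

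The averaged Arl2bp difference was −0.09 ± 0.03 log2 (limma adjusted p = 0.0383). Leaving out 1 library ended the Arl2bp call in 8 of 12 fits: Bmal1 siRNA TGFb library 1, any scrambled TGFb library, Bmal1 siRNA vehicle library 1 or 3, or scrambled vehicle library 1 or 2. Its adjusted p ran from 0.0143 to 0.0961 over the 12. The differences of Ampd2, −0.01 ± 0.05, Med10, 0.06 ± 0.05, and Icmt, 0.04 ± 0.04, were not called (limma adjusted p = 0.888, 0.311 and 0.461). Med10 and Icmt were above 0 in every alternative, whereas Ampd2 changed sign with scaling.

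**Figure D4:**
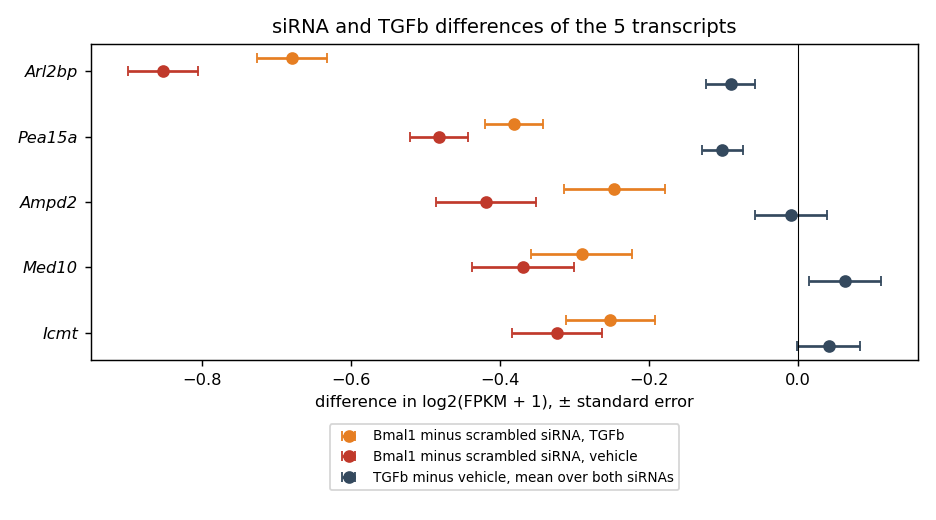
Difference in log2(FPKM + 1) with its standard error (horizontal axis) for each of the 5 transcripts: Bmal1 minus scrambled siRNA under TGFb, the same under vehicle, and TGFb minus vehicle averaged over both siRNAs. The siRNA differences run from −0.85 to −0.25 and the TGFb differences from −0.10 to 0.06.

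The 5 transcripts varied together over the 12 libraries, as genes chosen for the same group difference do. Pearson correlations among them ran from 0.805 to 0.988, and with Arntl from 0.546 to 0.721; no test is given, since the libraries share their groups. The gene most like Arl2bp was Pea15a (r = 0.988 over 12 libraries), and Erlin2 (0.929) was also among the 3 most alike. Pea15a was next most like Cacnb3 (0.937) and Erlin2 (0.925). Ampd2 was most like Icmt (0.924), C2cd2l (0.914) and Bpnt1 (0.910). Med10 was most like Slc35b1 (0.921), Reep5 (0.898) and Rtca (0.896), and Icmt, after Ampd2, was most like Arl2bp (0.918). Of the 6 genes in these lists that were not among the 10 lower in both, Erlin2 and Reep5 held the word in the 3′ UTR.

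The nearest genes on the chromosome were read for the same pattern. Of the 10 nearest tested protein-coding genes, 1 on each side, none was lower in both treatments. Over all tested genes this share was 0.0892%, so a count of 0 here says nothing particular to them. Some lay far off, with gaps of 97584 bases for Cx3cl1, 190953 for Srd5a1 and 735603 for Ice1. Cx3cl1, a chemokine gene on one side of Arl2bp, averaged 2.6 FPKM with Bmal1 siRNA and 5.01 FPKM with scrambled siRNA under TGFb. This was a log2 difference of −0.74 (limma adjusted p = 9.8e-05). Under vehicle it averaged 2.78 FPKM with Bmal1 siRNA and 1.66 FPKM with scrambled siRNA, a log2 difference of 0.51 (limma adjusted p = 0.0291). Gpr153 and Ice1 were lower under TGFb alone, by log2 differences of −0.68 and −0.48, and Rpl22, Srd5a1 and Dcaf8 higher, by 0.25, 0.21 and 0.19 (limma adjusted p from 1.6e-05 to 0.0496). Rspry1, Igsf8, Gstm4 and Gnai3 were not called in either comparison. Srd5a1 was the only one of the 10 that held the word in its 3′ UTR.

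Some of the 5 share exon bases with other genes, and the available sources do not state whether strand was used in counting. Med10 shares 4168 of its 4491 exon bases with Gm26819, a lincRNA on the opposite strand. Reads of both cannot be told apart there unless strand was used. Ampd2 shares 434 bases with the antisense gene Gm12500, Pea15a 123 bases with Dcaf8, and Icmt 103 bases with Rnf207. Dcaf8 was not lower with Bmal1 siRNA, and Rnf207 averaged 0.16 to 0.23 FPKM per group. Arl2bp shares none.

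Few genes of the pathways of the 5 were called under vehicle, as in the whole table, where 0.366% were lower and 0.294% higher; counts of 0 in lists of this size say nothing particular to them. Of the ARL2 partners, 0 of 15 tested were called there, with a median log2 of −0.04 beside 0.008 over all tested genes; Tbcd, a tubulin cofactor, was at −0.15 and Rp2 at 0.27. Of the PEA15 partners and death-effector proteins 0 of 13 were called (median 0.03), with Dedd2 at −0.31 and Mapk3, which encodes ERK1, at −0.09. Of the genes of adenine and guanine nucleotide interconversion 0 of 20 were called (median −0.02), with Nt5c at −0.23 and Ak4 at 0.64. Of 31 other Mediator subunits 1 was called, Med29, which averaged 14.5 ± 0.05 FPKM with Bmal1 siRNA and 18.02 ± 1.4 FPKM with scrambled siRNA, a log2 difference of −0.30 (limma adjusted p = 0.0389). With equal totals, with no filter, and without any of 8 single libraries, 0 of the 31 were called. Of the CAAX prenylation and processing genes 0 of 11 were called (median 0.01), with Pggt1b at 0.22 and Chml at 0.18. Of the carboxyl-methylated CAAX substrates 0 of 14 were called (median 0.04), with Lmnb1 at 0.17 and Hras at −0.17.

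Under TGFb, where 16% of all tested genes were called higher with Bmal1 siRNA and the median was 0.06, more of these genes were called. Among ARL2 partners 6 of 15 were higher and none lower (median 0.10). Arl2 itself averaged 133.6 ± 8.1 FPKM with Bmal1 siRNA and 108.9 ± 7.0 FPKM with scrambled siRNA, a log2 difference of 0.29, and Elmod3, Arl3 and Pde6d were higher by 0.35, 0.34 and 0.29. With median-of-ratios scaling 4 of the 15 were higher and 1 lower, and with equal totals 5 were higher. Among PEA15 partners 3 of 13 were higher (median 0.12), Camk2d by 0.23, Mapk3 by 0.21 and Camk2g by 0.16, but 1 higher and 1 lower with median-of-ratios scaling and 1 higher with equal totals. Among nucleotide genes 4 of 20 were higher and 1 lower (median 0.06), Gmpr by 0.45, Ampd3 by 0.30, Ak3 by 0.28 and Ada by −0.30, but 2 higher and 4 lower with median-of-ratios scaling, 3 higher and 3 lower with equal totals, and 1 higher and 1 lower without Bmal1 siRNA TGFb library 3.

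Of the Mediator subunits 2 were higher under TGFb, Med11 by 0.26 and Med16 by 0.24, and 1, Med15, was lower, by a log2 of −0.19 (median 0.03). With median-of-ratios scaling 1 was higher and 2 lower, and with equal totals 1 and 1. Of the CAAX processing genes 1 of 11, Pcyox1, was higher by 0.21 (median 0.05). None of the 11 was called with either other scaling, nor without Bmal1 siRNA TGFb library 2 or scrambled TGFb library 1 or 3. Of the CAAX substrates 1 of 14, Lmna, which encodes lamin A, was lower, with 216.0 ± 7.8 FPKM in Bmal1 siRNA cells and 284.4 ± 9.4 FPKM in scrambled siRNA cells (median 0.04), beside 7.16% of all tested genes called lower. No gene of these 6 lists was called lower in both treatments.

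Other groups were read as context for the reagents. Of the RNA interference machinery, 1 of 9 was called under TGFb, Prkra, higher by 0.25 (median 0.03), beside 16% of all tested genes called higher. None was called under TGFb with either other scaling or no filter, nor without Bmal1 siRNA vehicle library 3, Bmal1 siRNA TGFb library 2, or scrambled TGFb library 1 or 2. Under vehicle 0 of 9 were called (median 0.05), with Tarbp2 at −0.17. Of the clock and E-box genes, Arntl included, 2 of 17 were higher and 6 lower under TGFb (median −0.06), with Bhlhe40 at −1.24, Dbp at 0.77 and Bhlhe41 at −0.61. Under vehicle 0 were higher and 3 lower (median 0.03), Nr1d1 at −0.63, Nr1d2 at −0.48 and Arntl at −0.37. None of the 17 was called lower there without Bmal1 siRNA vehicle library 2 or 3 or scrambled vehicle library 1 or 3.

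Of the interferon and double-stranded RNA response genes 0 of 13 were higher and 11 lower under TGFb (median −1.26), with Oasl2 at −1.99, Usp18 and Rtp4 at −1.87 each and Isg15 at −1.84. Under vehicle 0 of 13 were called (median 0.31), with Ifih1 at 0.46 and Tlr3 at 0.31. The list summed to 65.95, 72.35 and 70.27 FPKM with Bmal1 siRNA and TGFb, against 104.05, 447.56 and 181.65 FPKM with scrambled siRNA and TGFb. The second scrambled TGFb library stood apart; without it 9 of the 13 were lower, with a median of −0.75. Under vehicle the sums were 73.56, 115.86 and 81.3 FPKM with Bmal1 siRNA, against 66.57, 60.5 and 71.21 FPKM with scrambled siRNA. For none of the 5 transcripts did the second scrambled TGFb library stand apart in this way.

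The 12 libraries held FPKM totals of 445472 to 483957 and 13673 to 13975 genes above 0; the available sources give no read numbers, so the depth is unknown. Correlations across genes within groups ran from 0.991 to 0.998. Of 11 stellate cell markers 9 were in the table and 8 averaged above 1 FPKM, with Col1a1 as the most abundant; Lrat and Reln were among those without a line. Of the hepatocyte, leukocyte and endothelial markers, 2 of 5, 3 of 6 and 4 of 4 were in the table. Each of these lists summed to at most 0.49 FPKM in any library. Alb, Ttr, Cyp3a11, Ptprc, Adgre1 and Clec4f had no line, so their levels are unknown. The 4 cholangiocyte markers summed to 5.04 to 7.3 FPKM with Bmal1 siRNA and TGFb and 5.8 to 7.73 FPKM with scrambled siRNA and TGFb, and to 8.08 to 9.65 FPKM with Bmal1 siRNA and vehicle and 7.62 to 8.08 FPKM with scrambled siRNA and vehicle. Their part in any result was not tested.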

How the data were processed

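The 12 EMS404 libraries were deposited as 1 table of FPKM with 2 decimals, which the authors scaled to library size. The submitters' processing notes list DESeq2, RSEM, Bowtie2 2.2.5, HISAT2 2.0.4 and the mm10 build, with no roles; the annotation, strand use and siRNA sequences are not in the available sources. Per the labels' protocols, RNA came from 1 of 2 kits, and which sample had which is not stated there. Triplicates are described as biological, yet separate cultures are not named, so every p-value reflects only how these samples spread, which may be technical. Of 16290 lines, 555 without an identifier (1.304% to 1.464% of FPKM) and 15 repeats were left out; GENCODE M21 matched 15694 of 15720 identifiers.

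For the tests, limma 3.58.1 (R 4.3.3) was run two-sided on log2(FPKM + 1) with an intensity trend, over all 12 libraries in 4 groups. The 11208 genes averaging 0.5 FPKM or more were tested, and the calling threshold was 0.05 on the Benjamini-Hochberg adjusted p. This scale understates changes of low genes. The fit was tested on simulated data with 200 changed genes. Python 3.11.15 searched words in the longest annotated 3′ UTR of at least 50 bases per gene. Holders of a word are described without a test. The genes, lists and rules were chosen with earlier results of these data known. Named were the 5 genes, Arntl, the nearest tested gene on each side, the 3 most correlated genes of each (a mean of at least 1 FPKM), and up to 4 called genes per list and comparison, or 2 where none was called; others are said to have been named after their values were seen. A gene that meets this rule is not reported here. Alternatives were pseudocounts of 0.1 and 5, no filter or a mean of at least 2 FPKM, 2 other scalings, the replicate block, no trend, only the groups compared, each library left out, other 3′ UTRs and word lengths, and, added after the data were seen, leaving out both second TGFb libraries, coding sequences and a standardised ranking of words.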

Additional observations from a re-analysis of the deposited data

Results flagged for a closer look

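The siRNA difference under TGFb minus that under vehicle, tested as an interaction in limma with Benjamini-Hochberg adjustment, was called for 1612 of 11208 genes and for 20 of 64 genes named by rule. Many list genes were named for a large siRNA difference in 1 treatment, which enters this change. A higher share among the named genes therefore follows in part from the naming. It was negative for Arntl (−0.77 log2), the neighbours Cx3cl1 (−1.25), Gpr153 (−0.90) and Ice1 (−0.49), the CAAX substrate Lmna (−0.33) and the clock genes Bhlhe40 (−1.78) and Bhlhe41 (−0.93). It was negative too for the interferon-response genes Ifih1 (−1.06), Isg15 (−2.12), Rtp4 (−2.28), Usp18 (−2.29) and Oasl2 (−2.69). For the interferon list the second scrambled TGFb library stood apart, with a sum of 447.56 FPKM against 104.05 and 181.65 FPKM in libraries 1 and 3. It was positive for Dbp (0.77), Gmpr (0.58), Arl2 (0.39), Med16 (0.36), Elmod3 (0.34), Pde6d (0.33), Mapk3 (0.29) and Camk2g (0.21). These genes were marked because the siRNA difference itself changed with the treatment, by adjusted p between 7.5e-05 and 0.046.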

How the results depend on the processing

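The siRNA differences of the 5 transcripts stayed below 0 in every alternative run, but calls were lost. Over 12 fits with 1 library left out, Icmt lost its vehicle call in 8, Med10 in 7 and Ampd2 in 4. Under TGFb Ampd2 lost its call in 3 of the 12. Arl2bp and Pea15a kept both calls in every alternative. These siRNA differences chose the 5, so calls kept or lost describe how the fit depends on processing and are no test of the 5. Without both second TGFb libraries the TGFb calls of Ampd2, Med10 and Icmt were lost, and Med10 under TGFb was −0.19. For TGFb against vehicle, Ampd2, at −0.01 log2, changed sign with median-of-ratios scaling (0.021), equal totals (0.00703) and without both second TGFb libraries (0.00827), and ran from −0.036 to 0.021 with 1 library left out; the cause was not tested. The Arl2bp call was lost with median-of-ratios scaling (adjusted p = 0.169), equal totals (0.0857), no trend (0.0578) and without both second TGFb libraries (0.0657). Genes called for the siRNA under TGFb, 2596, came to 1565 with only the groups compared and 1489 without both second TGFb libraries. Under vehicle the 74 called came to 7 without a filter, 540 with the replicate block, 245 with only the groups compared and 414 without both second TGFb libraries, and ran from 2 to 472 with 1 library left out. The split into lower and higher moved with scaling: under TGFb from 802 and 1794 to 1194 and 972 (median of ratios) or 889 and 1276 (equal totals), under vehicle from 41 and 33 to 26 and 41 (equal totals), and for TGFb against vehicle from 3080 and 2138 to 2565 and 2643 (median of ratios). Words shared by all 5 were 1 at 7 letters, 31 at 6, 0 at 8, 0 in the shortest 3′ UTRs and 0 in coding sequences. Genes with an E-box in the promoter were 1, and 0 with CACGTG alone. Whether replicate numbers pair the libraries is not settled: deviations correlated by −0.16 to 0.47 in 18 same-number pairs, 8 of them over 0.1. All 3 numbers passed 0.1 between the Bmal1 siRNA vehicle and scrambled TGFb libraries (0.42, 0.22 and 0.20), groups not compared with each other, but not between any groups compared. Of 12 libraries 5 were closest to one of their own number, so the numbers were not used as a block in the reported values.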
